A study of Mus musculus with 6 samples.

Results

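The genes described here encode the SR and hnRNP splicing factors, the most abundant families of proteins that bind precursor mRNA and set which splice sites are used. They were taken by symbol from the polyA RNA-Seq count tables, as every gene named Srsf with a number, Hnrnp with a suffix, Tra2a or Tra2b. The rule found 33 genes of the 39017 in the tables: 11 SR genes (Srsf1 to Srsf7 and Srsf9 to Srsf12), 2 Tra2 genes and 20 hnRNP genes. No measured value entered the choice of these members. There were 6 libraries in 3 groups of 2. The untreated and auxin groups were made from 1 clonal, homozygous Pol II degron line of V6.5 mouse embryonic stem cells (mESCs), in which RPB1, the largest Pol II subunit, carried mAID and EGFP at its C-terminus. OsTIR1, the plant F-box protein that directs mAID fusions to degradation when auxin is present, stood at the Rosa26 locus of this line and was induced in both groups by doxycycline, at 1 μg/ml over 12 h. The auxin group then received 500 μM auxin for 6 h, and the untreated group received none. The wild-type group consisted of mESCs without the tag, and whether they received doxycycline is not given in the sources used here. The cells had been cultured with irradiated fibroblast feeders.

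SR proteins bind exons through RNA recognition motifs and carry a domain rich in arginine and serine, with which they help U1 snRNP and U2AF to reach the splice sites. The hnRNP proteins coat nascent transcripts and in many cases keep exons from being included. Both families act on RNA while Pol II is still making it, and many of their genes limit their own expression by splicing in an exon that sends the mRNA to nonsense-mediated decay. The comparison of auxin with untreated cells asks how the mRNAs for these factors stood after 6 h without Pol II. The comparison of wild-type with untreated cells asks whether the tagged line differed from its parental type before auxin.

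The library totals were 14094022 to 15358714 counts on genes, and the replicates of each group differed by more than counting error, with chi-square values per degree of freedom of 2.21 to 5.32. The study describes its sequencing replicates as biological. The p-values rest on the spread between these 2 libraries a group, which the test draws toward that of the other genes tested. The targeted gene Polr2a was at 461 and 451 CPM (counts per 1000000 after TMM scaling over the 6 libraries) in untreated, 651 and 687 in auxin, and 483 and 497 in wild-type libraries. Auxin removes the RPB1 protein, and its mRNA is no measure of how much was left. The 7 pluripotency markers summed to 3785 and 4347 CPM in untreated, 3132 and 3365 in auxin and 6477 and 6420 in wild-type libraries. The 7 feeder fibroblast markers summed to 152 and 149 CPM in untreated, 171 and 198 in auxin and 123 and 127 in wild-type libraries. The wild-type records name retinas in the RNA extraction, and the 8 retina markers summed to 5.26 to 7.74 CPM in the 6 libraries, with 2 of the 8 at 0 in each of them.

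All 33 members passed the filter on low counts. Together they held 1.06% to 1.08% of the counts in the untreated and auxin libraries and 1.44% to 1.47% in the wild-type libraries. On the scale of CPM per kilobase of exon (the union of exons in the GENCODE vM21 annotation of mm10), which permits levels to be compared between genes, the untreated cells ranged from 315 ± 31.7 (SD, n = 2) for Hnrnpab to 1.84 ± 0.199 (SD, n = 2) for Srsf12. Hnrnpab, a CArG-box and mRNA binding protein, led the hnRNP A/B and D group, followed by Hnrnpa1 at 253 ± 13 (SD, n = 2) CPM per kilobase, a factor known for repressing exons. Hnrnpf, which binds runs of G, was the highest of the F/H group at 165 ± 14.5 (SD, n = 2) CPM per kilobase. These 3 were separated by more than their spreads.

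Below them, the poly(C)-binding protein gene Hnrnpk was at 133 ± 3.34 CPM per kilobase and Hnrnpc, whose protein binds uridine tracts, at 110 ± 5.33 (both SD, n = 2). Hnrnpl was at 92.7 ± 5.82, Hnrnpu at 58.8 ± 1.04, Hnrnpm at 43.5 ± 0.0106 and Hnrnpr at 4.37 ± 0.291 CPM per kilobase (each SD, n = 2). Among the SR genes Srsf5 was highest at 96.5 ± 1.55 (SD, n = 2) CPM per kilobase, and Srsf1 (69.6 ± 0.0143) and Srsf2 (69.5 ± 1.63) did not differ beyond their spread. Tra2b, a splicing enhancer that binds GAA-rich exons, was at 28.1 ± 0.0836 (SD, n = 2) against 17.1 ± 0.0672 for Tra2a, also as CPM per kilobase. The order rested on the length used. With the longest transcript in place of the exon union, 5 of the 33 members kept their rank in the untreated cells, and Hnrnpk rose to 290 CPM per kilobase.

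**Figure D1:**
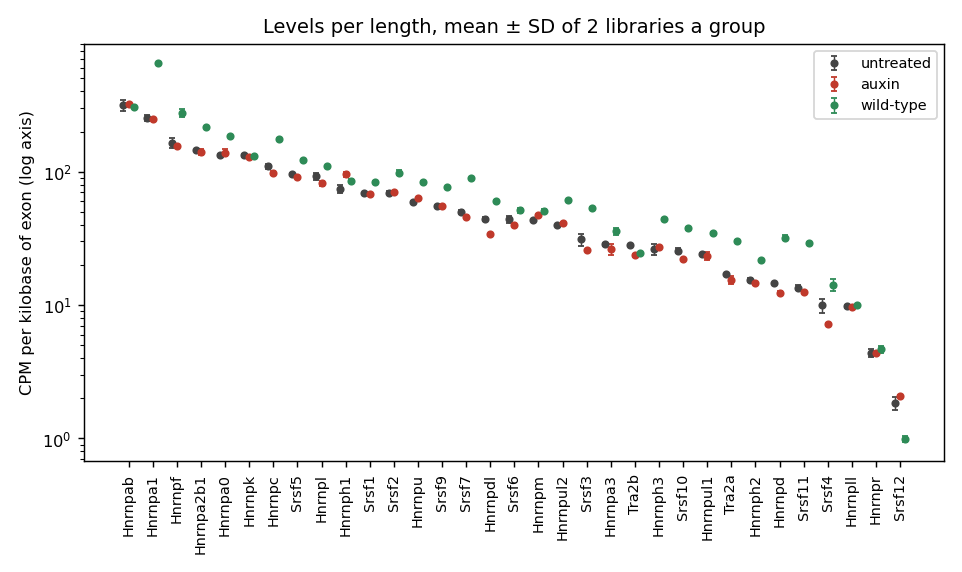
CPM per kilobase of exon (log axis) for the 33 members, ordered by the untreated mean, with points for the mean and bars for the SD of 2 libraries in the untreated, auxin and wild-type groups. The untreated and auxin points lie close together for most members, while most wild-type points lie above both, and Srsf12 is lowest in all 3 groups.

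After 6 h of auxin, most SR and hnRNP mRNAs stayed near their untreated share of the mRNA pool. Hnrnph1, which encodes a splicing factor that binds runs of G, rose, while Hnrnpdl, which encodes a paralog of the AU-rich element binding protein hnRNP D, and Srsf4, an SR gene, fell. At an adjusted p under 0.05 from edgeR's quasi-likelihood test, 1 of the 33 members was called higher (3.03%, against 2.56% of the 16128 genes tested) and 2 were called lower (6.06%, against 1.64% of the genes tested). Among the 8189 tested genes that averaged 300 counts or more, 1.27% were called higher and 2.91% lower. No member changed by more than 1 on the log2 scale, a size passed by 1.49% of all tested genes upward and 0.0434% downward. The largest fall was 0.45 and the largest rise 0.39, and 29 of the 33 lay within 0.25 of 0.

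Hnrnph1 was at 453 and 412 CPM in the untreated libraries and at 574 and 541 CPM in the auxin libraries. The rise by edgeR was 0.39 on the log2 scale, with a standard error of 0.08 and an adjusted p of 0.0148. The gene lies on the plus strand of chromosome 11 of mm10, from 50376990 to 50386528, with 18 annotated transcripts and no annotated exon of another gene over its exons.

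Hnrnpdl was at 207 and 217 CPM in the untreated libraries and at 162 and 164 CPM in the auxin libraries. The change was put by edgeR at −0.36 on the log2 scale, with a standard error of 0.07 and an adjusted p of 0.0101. Hnrnpdl lies on the minus strand of chromosome 5 from 100033577 to 100039664, 54638 bases from its paralog Hnrnpd on the same strand. Hnrnpd was at 108 and 108 CPM in the untreated and 89.8 and 92.6 CPM in the auxin libraries, a log2 fold change of −0.22 that did not pass (adjusted p = 0.0763 by edgeR).

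Srsf4 was at 32.5 and 38.5 CPM in the untreated libraries and at 26.1 and 25.3 CPM in the auxin libraries. The untreated replicates of Srsf4 lay further apart than those of any other member, 0.24 on the log2 scale. The change by edgeR was −0.45 on the log2 scale, with a standard error of 0.10 and an adjusted p of 0.0277. Srsf4 lies on the plus strand of chromosome 4 from 131873617 to 131901706, and 1532 bases of its exons overlap Gm12992 on the other strand, which had 10 to 23 counts in each library.

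The promoters of Hnrnph1, called higher after auxin, and Srsf4, called lower, are set side by side here. Whether promoter sequence had a part in their changes was not tested. The sequences below are from RefSeq (GRCm38.p6), 5′ to 3′ on the strand of the gene and ending at the base before the annotated gene, with GC boxes (GGGCGG on either strand) and CCAAT boxes (CCAAT on either strand) in capitals. Hnrnph1 is chr11:50376740-50376989 on the plus strand and Srsf4 is chr4:131873387-131873616 on the plus strand. The window of Hnrnpdl lies inside the annotated gene and is not shown.
Hnrnph1: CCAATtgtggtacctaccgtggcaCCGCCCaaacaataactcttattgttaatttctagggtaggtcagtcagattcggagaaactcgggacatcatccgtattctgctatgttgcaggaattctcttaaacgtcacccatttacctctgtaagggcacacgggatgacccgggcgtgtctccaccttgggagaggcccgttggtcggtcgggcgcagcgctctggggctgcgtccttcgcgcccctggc
Srsf4: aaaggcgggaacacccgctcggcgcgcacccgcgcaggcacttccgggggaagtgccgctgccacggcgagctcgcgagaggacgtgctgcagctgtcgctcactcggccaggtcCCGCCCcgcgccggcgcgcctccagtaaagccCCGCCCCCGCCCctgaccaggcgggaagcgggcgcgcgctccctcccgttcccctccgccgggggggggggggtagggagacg

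The Hnrnph1 window held 1 CCAAT box and 1 GC box in 250 bases with 55.6% G and C. The Srsf4 window held 3 GC boxes, of which 2 stand end to end, and no CCAAT box in 230 bases with 77.4% G and C. Neither held TATAAA. Over the 31 members, all but Hnrnpll and Hnrnpul2, with a RefSeq window of the 250 bases before the start, a GC box was found in 25 (80.6%), against 32.9% of all 27025 genes with such a window. A CCAAT box was found in 16 (51.6%, against 34.5%) and TATAAA in 3, Srsf2, Srsf3 and Hnrnpm (9.68%, against 13%). The median share of G and C was 63.6% for the members and 52.0% for all genes. These are matches of letters and not sites shown to be bound, and the genes they are set against were not limited to expressed ones.

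The next members outside the threshold were Tra2b and Hnrnpd. Tra2b was at 260.2 and 259 CPM in the untreated and 221 and 214 CPM in the auxin libraries, a change by edgeR of −0.24 on the log2 scale with an adjusted p of 0.064. Srsf3, which encodes the smallest SR protein, had a fold change of −0.25 on the log2 scale with an adjusted p of 0.087 by edgeR. Tra2b, Hnrnpd and Srsf3 were called lower with all 3 groups in one fit and without untreated replicate 1, and Tra2b and Hnrnpd also without untreated replicate 2.

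**Figure D2:**
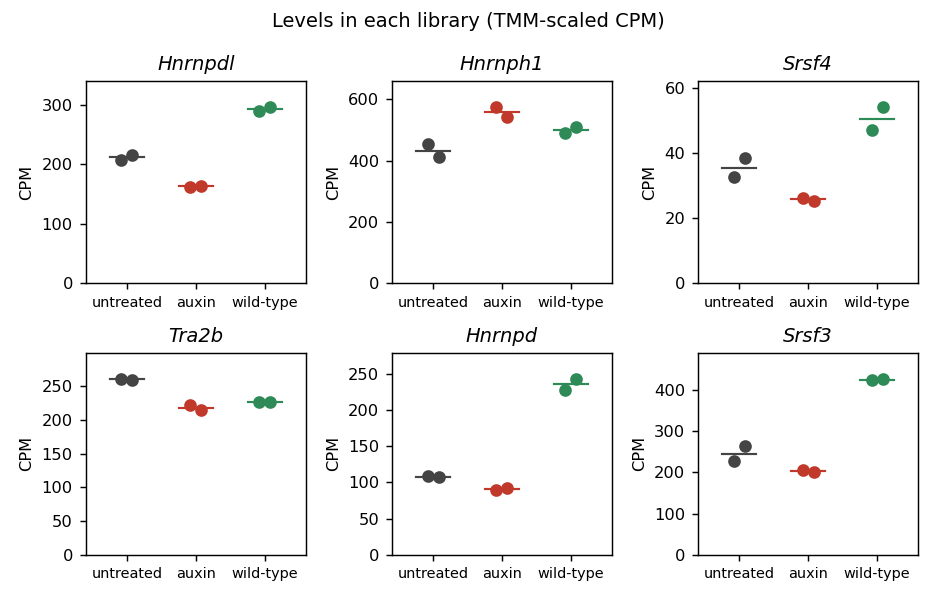
Level in CPM (axis from 0) of the 6 members with the smallest p-values in the auxin comparison, with a point for each library and a line at the mean of each group of 2. Hnrnph1 is higher in both auxin libraries than in both untreated ones, and Hnrnpdl, Srsf4, Tra2b, Hnrnpd and Srsf3 are lower.

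By family, the 13 SR and Tra2 genes had a median log2 fold change of −0.11 and a range of −0.45 to 0.18, with 0 called higher and 1 lower. The 20 hnRNP genes had a median of −0.01 and a range of −0.36 to 0.39, with 1 higher and 1 lower. The median over all genes tested was 0.00 and over those averaging 300 counts or more −0.03. Without adjustment, 1 member higher and 8 lower had a p under 0.05 by edgeR. In either direction, 3245 of all 16128 genes tested had such a p. DESeq2 called 1 member higher (Hnrnph1) and 1 lower (Hnrnpdl). The standard errors of the members ranged from 0.07 to 0.19 on the log2 scale. Changes larger than its standard error could leave a member uncalled with 2 libraries a group, as for Srsf3 at −0.25 with a standard error of 0.08. The uncalled members are therefore not shown to be the same in both groups. Since polyA RNA was measured in bulk and no RNA of known amount was added, a fall shared by all mRNAs would not show, and fewer cells of a type cannot be told apart from less RNA per cell.

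The calls depended on single libraries. Over all genes tested too, more were called without an untreated library and fewer without an auxin library than with all libraries. The member calls were lost without either auxin library. With a lone library in 1 group, counts of calls are not compared here between members and other genes. The member median was −0.05 without untreated replicate 1 and −0.02 without untreated replicate 2, on the log2 scale. It was −0.06 without auxin replicate 1 and −0.03 without auxin replicate 2. Hnrnph1 stayed above 0 and Hnrnpdl and Srsf4 below 0 in each of these 4 fits, at 0.31 to 0.45 for Hnrnph1, −0.40 to −0.33 for Hnrnpdl and −0.57 to −0.32 for Srsf4 on the log2 scale. In the same cells 4 of the 7 pluripotency genes were called lower, Nanog (log2 fold change −0.58), Sox2 (−0.78), Zfp42 (−0.65) and Esrrb (−0.54). Tdgf1 (−0.26), Dppa5a (−0.11) and Pou5f1 (0.08) were not called. Of the 5 feeder markers tested only Col1a2 was called, with a rise of 0.36. The uncalled ones ran from −0.18 for Thy1 to 0.41 for Postn. Of the 12 mitochondrial mRNAs tested, mt-Co2 (1.04), mt-Atp6 (0.94) and mt-Co3 (0.77) were called higher, as log2 fold changes. The uncalled ones ran from −0.01 for mt-Nd6 to 0.76 for mt-Nd3, with the most abundant, mt-Co1, at 0.14. The part of these genes in the member values was not tested.

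**Figure D3:**
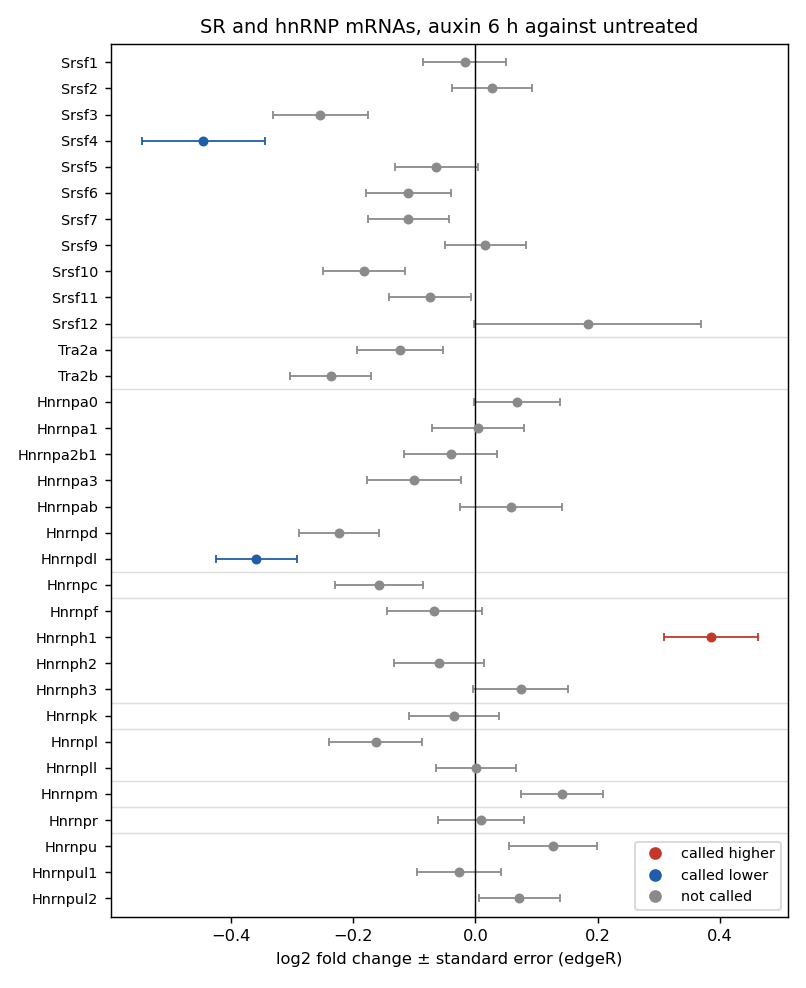
Log2 fold change of auxin against untreated for the 33 members by class, with bars of 1 standard error from edgeR, red for the member called higher and blue for the 2 called lower. Points to the left of 0 are lower after auxin, and the values run from −0.45 for Srsf4 to 0.39 for Hnrnph1.

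In wild-type mESCs, the SR and hnRNP mRNAs stood at a higher level than in the untreated degron cells. Both families took part, and Hnrnpa1, Hnrnpd and Srsf11 were more than doubled. Called by edgeR's quasi-likelihood test at an adjusted p under 0.05, 27 of the 33 members were higher (81.8%, against 29.9% of the 15778 genes tested) and 2 were lower (6.06%, against 30.7%). Many genes differ between these groups, and among the 8061 averaging 300 counts or more 39.5% were called higher and 30.0% lower. A call with a log2 fold change over 1 was made for 7.12% of the genes tested upward and 11.0% downward, and for 3 members upward and none downward. The wild-type libraries were deposited in a separate table, so genotype and whatever else differs between the tables cannot be told apart, and this comparison shares its untreated libraries with the auxin comparison.

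Among the hnRNP genes, the change was largest for Hnrnpa1, at 768 and 826 CPM in the untreated and 2047 and 2059 CPM in the wild-type libraries. The difference by edgeR was 1.36 on the log2 scale, with a standard error of 0.07 and an adjusted p of 2.79e-08. Hnrnpd, an AU-rich element binding protein gene also known as AUF1, was at 108 and 108 CPM in the untreated and 228 and 242 CPM in the wild-type libraries, which edgeR put at 1.12 on the log2 scale with an adjusted p of 7.43e-08. In both genes the lower wild-type library was far above the higher untreated one.

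Other members of the A/B and D group rose less. Hnrnpa2b1, whose protein also sorts RNAs for transport, went from 964 and 964 CPM in untreated to 1402 and 1426 CPM in wild-type libraries (log2 fold change 0.55). Hnrnpa0 rose by 0.45, Hnrnpdl by 0.46 and Hnrnpa3 by 0.32 on the log2 scale. Hnrnpab, the highest member per length in the untreated cells, was at 813 and 938 CPM in untreated and 839 and 859 CPM in wild-type libraries and did not pass (log2 fold change −0.05).

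All 4 genes of the F/H group were called higher. Hnrnpf was at 472 and 534 CPM in untreated and 803 and 888 CPM in wild-type libraries, a log2 fold change of 0.74. Hnrnph3 was at 76.8 and 87.9 CPM in untreated and 140.3 and 139 CPM in wild-type libraries, a log2 fold change of 0.75. Hnrnph1 rose least of the group, by 0.20 on the log2 scale (adjusted p = 0.0185 by edgeR).

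The genes of the U group moved by similar amounts, with Hnrnpu, also known as scaffold attachment factor A, at 674 and 691 CPM in untreated and 979 and 969 CPM in wild-type libraries (log2 fold change 0.51). Hnrnpul1 was at 207 and 210.5 CPM in untreated and 296 and 303 CPM in wild-type libraries (0.51). Hnrnpul2 was at 282 and 281 CPM in untreated and 433 and 435 CPM in wild-type libraries (0.62). All 3 were called higher. Hnrnpc, at 458 and 491 CPM in untreated and 769 and 746 CPM in wild-type libraries, rose by 0.67 on the log2 scale.

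The hnRNP genes that were not called were Hnrnpab, Hnrnpk, Hnrnpll and Hnrnpr, with log2 fold changes of −0.05 to 0.09. Hnrnpk was at 845 and 876 CPM in untreated and 842 and 840.5 CPM in wild-type libraries. Hnrnpl, the paralog of Hnrnpll, rose by 0.26 and Hnrnpm by 0.21 on the log2 scale. The 20 hnRNP genes together went from 7995 and 8351 CPM in untreated to 11606 and 11803 CPM in wild-type libraries.

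Among the SR genes, 10 of 11 were called higher. Srsf11, also known as p54, was at 117 and 110.4 CPM in the untreated and 246 and 249 CPM in the wild-type libraries, which edgeR put at 1.11 on the log2 scale with an adjusted p of 7.26e-08. Srsf7, an SR protein with a zinc knuckle, was at 174 and 182 CPM in untreated and 314 and 318 CPM in wild-type libraries, a log2 fold change of 0.82. Srsf3 was at 227 and 264 CPM in untreated and 424 and 426 CPM in wild-type libraries, a log2 fold change of 0.78. For each of the 3 the wild-type replicates were closer to each other than the untreated ones in CPM ratio.

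Srsf10, a splicing factor whose activity depends on phosphorylation, was at 185 and 174 CPM in untreated and 259 and 268 CPM in wild-type libraries (log2 fold change 0.54). Srsf2, also known as SC35, was at 202 and 209 CPM in untreated and 283 and 300.4 CPM in wild-type libraries (0.50). The remaining SR genes called higher were Srsf4 (0.50), Srsf9 (0.46), Srsf5 (0.34), Srsf1 (0.26) and Srsf6 (0.22), each as a log2 fold change.

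The exception in the SR family was Srsf12, the member with the lowest level, at 5.4 and 6.3 CPM in untreated and 3.2 and 3.0 CPM in wild-type libraries. It fell by 0.90 on the log2 scale (standard error 0.22, adjusted p = 0.00375 by edgeR). The Tra2 paralogs parted: Tra2a was at 119 and 118 CPM in untreated and 207 and 214 CPM in wild-type libraries, a log2 fold change of 0.82. Tra2b was at 260.2 and 259 CPM in untreated and 227 and 227 CPM in wild-type libraries, a log2 fold change of −0.20 (adjusted p = 0.00893 by edgeR). The difference between the paralogs was not itself tested. The 13 SR and Tra2 genes together went from 2403 and 2452 CPM in untreated to 3338 and 3415 CPM in wild-type libraries.

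**Figure D4:**
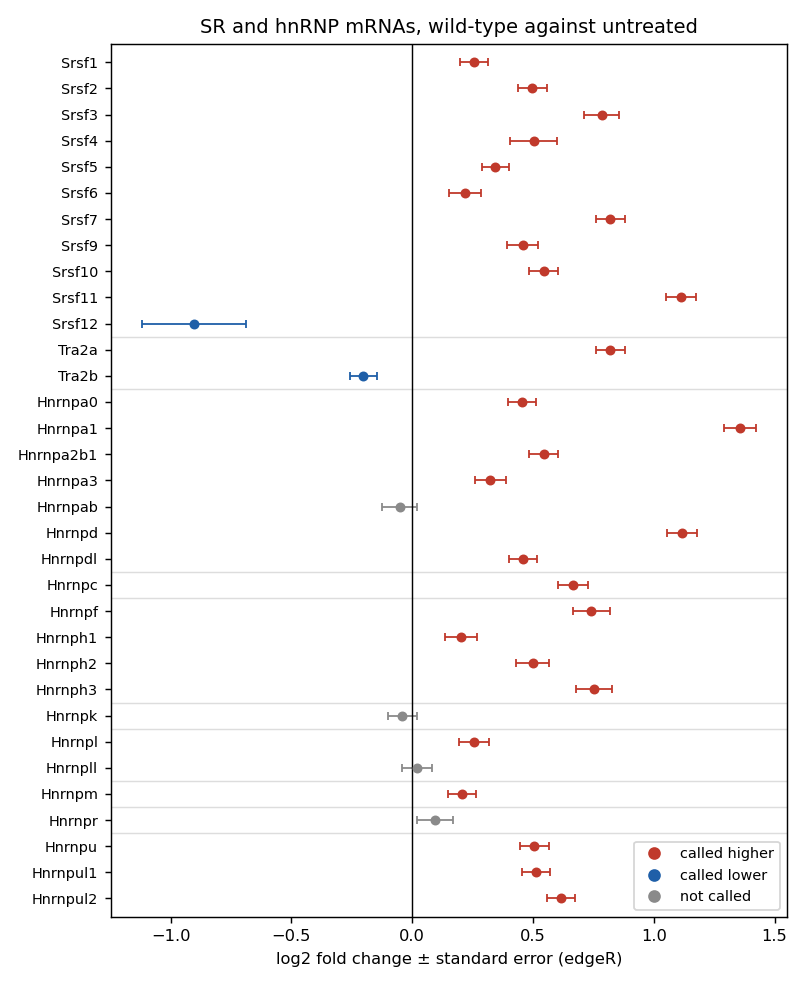
Log2 fold change of wild-type against untreated for the 33 members by class, with bars of 1 standard error from edgeR, red for called higher, blue for called lower and grey for not called. Of the members, 27 lie right of 0 and are called, Srsf12 and Tra2b lie left, and the largest value is 1.36 for Hnrnpa1.

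The member median was 0.50 on the log2 scale, against −0.01 over all genes tested and 0.06 over those averaging 300 counts or more. Without wild-type replicate 1 the member median was 0.50, and without wild-type replicate 2 it was 0.46. Without untreated replicate 1 it was 0.45, and without untreated replicate 2 it was 0.49. The 13 mitochondrial mRNAs, products of the organelle's own polymerase, summed to 3353 and 4023 CPM in untreated and 15914 and 15567 CPM in wild-type libraries and all 13 were called higher. Set against those mRNAs instead of the typical gene, all 33 members were called lower in wild-type, as were 15235 of all 15778 genes tested, with 73 higher. The member median was then −1.60 and the median over all genes −2.10 on the log2 scale, so the sign of the members rested on the scale. Of the pluripotency genes, Dppa5a (1.40), Tdgf1 (1.14), Sox2 (0.86) and Nanog (0.46) were higher in wild-type and Zfp42 (−0.18) lower, as log2 fold changes. Of the feeder markers, Col1a2 (−0.66) and Thy1 (−0.62) were lower and Postn (1.07) higher. The part of these genes and of the mitochondrial mRNAs in the member values was not tested.

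Some members share sequence with copies elsewhere in the genome or with a gene that overlaps them, to which reads can be assigned instead. Over 10% of the 100-base stretches of their transcripts were shared with another gene in Hnrnpf (31.5%), Hnrnpa1 (25.9%), Hnrnpa3 (25.6%) and Hnrnpm (12.4%). At least 1 such stretch was shared by 15 members. For Hnrnpm the other gene was March2 on chromosome 17, whose exons overlap 1169 bases of Hnrnpm exons on the same strand. All 861 stretches of the Hnrnpa1 pseudogene Gm10052 and all 1389 of the Hnrnpa3 pseudogene Gm5641 occur in the transcripts of the member. Gm6793 on chromosome 8, annotated as protein-coding, shares 915 of its 1505 stretches with Hnrnpa3. A place where they differ by a single base is shown here, and the rest of the unshared sequence was not aligned. The stretches of 51 bases below are positions 324 to 374 of the Hnrnpa3-204 transcript and 229 to 279 of the Gm6793-201 transcript in GENCODE vM21, with the differing base in capitals. The difference is C26T, counted from 1 at the 5′ end of the stretch, with the Hnrnpa3 base first.
Hnrnpa3: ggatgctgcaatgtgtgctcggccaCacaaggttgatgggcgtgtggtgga
Gm6793: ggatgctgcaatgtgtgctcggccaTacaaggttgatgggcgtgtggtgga

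Gm6793 had 198 and 253 counts in untreated, 487 and 326 in auxin, and 9111 and 9295 in wild-type libraries. Hnrnpa3 itself was at 157 and 151 CPM in untreated and 186 and 202 CPM in wild-type libraries. Summed with its 18 copies in the tables, it was at 306 and 314 CPM in untreated and 1037 and 1048 CPM in wild-type libraries, a ratio of means of 3.37 against 1.26 for the member alone. How much of the copies' counts came from Hnrnpa3 mRNA was not tested, so the Hnrnpa3 level in wild-type is uncertain. For Hnrnpa1 the ratio was 2.51 with its 6 copies and 2.58 without, and for Hnrnpf 1.63 with its 5 copies and 1.68 without. In auxin over untreated, the sums gave ratios of 1.01 for Hnrnpa1 and 1.04 for Hnrnpa3. Leaving out the 4 members with over 10% shared stretches, 23 of 29 members were called higher and 2 lower in wild-type, and 1 higher and 2 lower after auxin.

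The members have many annotated transcripts, which the counts sum. A transcript marked for nonsense-mediated decay was annotated in 21 of the 33 members (63.6%), against 27.0% of the 14234 protein-coding genes tested, and a retained-intron transcript in 24 (72.7%, against 55.9%). The median number of transcripts was 7 for the members and 5 for the protein-coding genes tested. Of the called members in the auxin comparison, Srsf4 and Hnrnpdl each had 2 annotated decay transcripts and Hnrnph1 had 0. A productive mRNA and a decay form of the same gene cannot be told apart in these values. Exons of 11 members overlap another gene on the opposite strand, and those of 3 (Hnrnpa3, Hnrnpm and Hnrnpul2) on the same strand. The sources used here do not say whether strand was used in counting.

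Other splicing genes were counted in 7 lists of 144 genes. After auxin, edgeR called 0 of the 141 tested higher and 5 lower (against 2.56% and 1.64% of all genes). At an unadjusted p under 0.05 there were 5 higher and 32 lower, against 3245 of all 16128 genes in either direction. DESeq2 called 0 higher and 1 lower. Their median log2 fold change was −0.05. Clk4, a kinase that phosphorylates SR proteins, fell from 79.0 and 79.1 CPM in untreated to 63.8 and 62.3 CPM in auxin libraries (log2 fold change −0.31, adjusted p = 0.0284 by edgeR). The SR-related gene Rsrc2 (−0.32), the U2 snRNP subunit gene Sf3a1 (−0.27), the U5-associated Cd2bp2 (−0.31) and Cdc5l (−0.30), whose protein belongs to the complex around Prp19, also fell, as log2 fold changes. These 5 calls likewise depended on single libraries and were lost without either auxin library. The number called over all genes tested changed with the library left out as well.

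In wild-type, 78 of 140 other splicing genes were called higher and 19 lower by edgeR, against 29.9% and 30.7% of all genes tested, and their median log2 fold change was 0.23. Scaled to the mitochondrial mRNAs, 1 was higher and 137 lower, against 73 higher and 15235 lower of all 15778 genes tested. Their median was then −1.87, so their sign too rested on the scale. The genes named below are those called with the smallest p in each list, which need not have the largest change. Among hnRNP proteins under other symbols, 9 of 19 were higher and 3 lower, among them Khsrp (1.08), Ewsr1 (0.65) and Elavl1 (0.59), as log2 fold changes. The SR-related proteins had 15 of 27 higher and 3 lower, among them Luc7l2 (1.10), Rnps1 (0.81) and Bclaf1 (0.83). Of the kinases and import factors that act on SR proteins, 4 of 11 were higher and 3 lower. Srpk1, which phosphorylates SR proteins in the cytoplasm, rose by 0.62 on the log2 scale, while Clk4 (−1.22) and Clk1 (−0.64), nuclear kinases of SR proteins, fell.

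U1 and U2 snRNP and U2AF proteins had 11 of 21 higher and 4 lower, among them Snrnp70 (0.81), Sf3b1 (0.67) and Sf3a2 (0.80), as log2 fold changes. The Sm and LSm ring proteins had 9 of 14 higher and 1 lower, among them Snrpd1 (1.28), Lsm8 (0.83) and Snrpd3 (0.60). The tri-snRNP and catalytic-step proteins had 16 of 24 higher and 2 lower, among them Cdc5l (0.93), Aqr (0.60) and Sart1 (0.59). Other regulators of alternative splicing had 14 of 24 higher and 3 lower, among them the paraspeckle genes Pspc1 (3.14) and Sfpq (1.81) and Elavl2 (1.72).

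**Figure D5:**
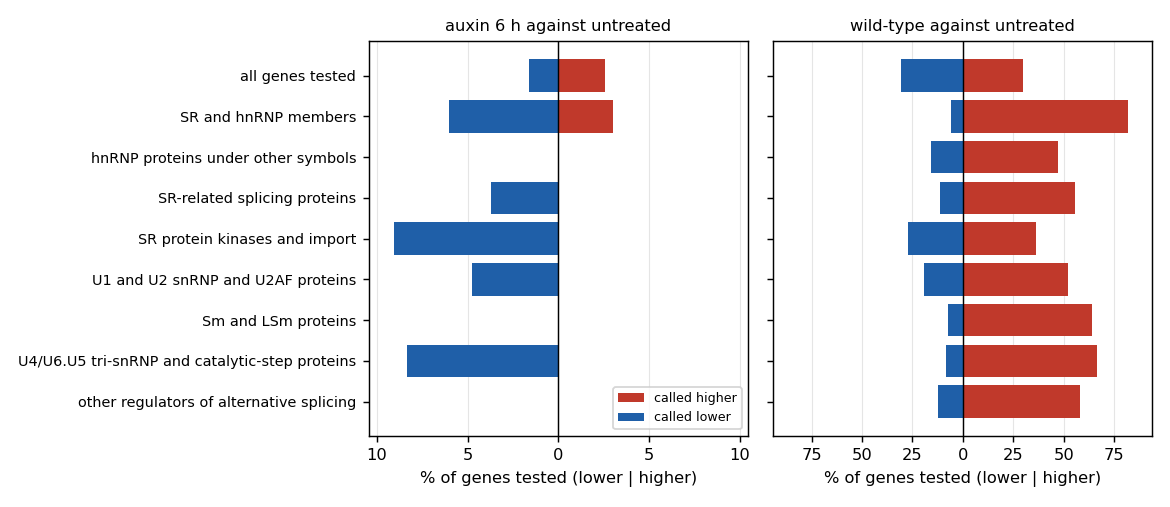
Share of genes tested, in percent, called higher (red, right) or lower (blue, left) at an adjusted p under 0.05 by edgeR, for all genes, the 33 members and the 7 lists of other splicing genes, after auxin on the left and in wild-type on the right, with different axis ranges. The auxin shares are 10% or less, and in wild-type 81.8% of the members are called higher against 29.9% of all genes.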

How the data were processed

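PolyA RNA-Seq of 6 libraries in 3 groups of 2 (untreated, auxin and wild-type) was used. The authors aligned paired reads to mm10 with HISAT2 2.1.0, counted them on GENCODE genes with salmon and htseq-count, and deposited whole-number counts per gene, not normalized. The strand setting and annotation release are not given in the sources used here. The degron and wild-type libraries stood in separate tables of 39017 genes, which were joined by gene ID, since 27 symbols differed between them. The authors' own DESeq2 columns (fold changes and p-values) were not used, nor were 2 columns of per-sample values that matched no sample.

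Each comparison was fitted on its own 4 libraries with edgeR 4.0.16 (R 4.3.3): filterByExpr with a minimum count of 10, TMM, glmQLFit and glmQLFTest, with Benjamini-Hochberg adjustment over all genes tested. The procedure was tested on simulated counts with the same spread for all genes and groups. The libraries used here differ in spread, so that test does not measure how well the calls hold in them. Members were called at an adjusted p under 0.05. Levels are CPM after TMM over the 6 libraries, and CPM per kilobase of exon. Totals of 14094022 to 15358714 counts set the counting error, and no molecular identifiers are named.

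The members were taken by the symbol rule alone, but that rule, the lists, tests and alternatives were set with earlier results of these data known. Every member is accounted for. Called members are named with values, at most 15 a comparison by smallest p, with the highest member of each class, the 2 members just outside the threshold and up to 3 called genes by smallest p in each list of other splicing genes. The alternatives were DESeq2 1.42.0, other scalings, no filter, a replicate block, all 3 groups in one fit, a log2 fold change over 1, the longest transcript as the length, and each library left out in turn. Added after seeing the data were a background of genes averaging 300 counts or more, leaving out members with shared sequence, and a crossed block. Motifs were searched on both strands in the 250 bases before the first listed RefSeq start of each gene. Where a library was left out, the lone library of its group was assumed to vary like the others. The check of pairing is given with the limits.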

Additional observations from a re-analysis of the deposited data

How the results depend on the processing

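After auxin, the member calls (1 higher, 2 lower) were 1 and 2 with the size factors of DESeq2 or library totals only. They were 1 and 1 with DESeq2, where Srsf4 was lost, 0 and 0 with no filter (smallest adjusted p 0.0691 by edgeR) and 0 and 0 when scaled to the mitochondrial mRNAs (smallest adjusted p 0.133 by edgeR), with 1 higher and 8 lower, and 0 higher and 6 lower, at an unadjusted p under 0.05. Over all genes, the calls were 128 and 108 with DESeq2, 43 and 12 with no filter and 167 and 52 with the mitochondrial scaling. All 3 groups in one fit gave 1 and 6 members, against 567 and 668 of all genes. Leaving out each library gave 0 to 2 higher and 0 to 9 lower. The cause of these differences was not tested. The scaling to mitochondrial mRNAs moved the median of all genes to −0.17 and the share of calls that were higher from 61.0% to 76.3%. With a log2 fold change over 1 as well, 1.53% of all genes were called after auxin against 4.20%, and 18.1% against 60.6% in wild-type.

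Replicates share only a number. The correlation of their deviations was 0.13 between untreated and auxin and −0.10 between untreated and wild-type. The replicate block gave 1 member higher and 5 lower after auxin, with Tra2b, Hnrnpd and Srsf3 added to the lower calls (1081 and 849 of all genes against 413 and 264) and 27 and 2 in wild-type, and a crossed block in wild-type gave 27 and 2. In wild-type, the 27 higher and 2 lower members were 25 to 27 and 2 under the other settings that kept all libraries. The exception was the scaling to mitochondrial mRNAs, which gave 0 and 33 members, and 73 and 15235 of all genes. They were 22 to 27 and 1 to 4 with each library left out.

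Directions of uncalled members near 0 turned after auxin in 11 members when scaled to the mitochondrial mRNAs, to log2 fold changes of Hnrnpll −0.17, Hnrnpr −0.17, Hnrnpa1 −0.16, Srsf9 −0.15, Srsf2 −0.14, Hnrnpa0 −0.10, Hnrnpab −0.10, Hnrnpul2 −0.10, Hnrnph3 −0.084, Hnrnpu −0.040 and Hnrnpm −0.027. With DESeq2 they turned to Hnrnpll −0.011, Hnrnpa1 −0.0070 and Hnrnpr −0.0016, with no filter to Hnrnpll −0.021, Hnrnpa1 −0.018, Hnrnpr −0.012 and Srsf9 −0.0053, and with all 3 groups in one fit to Hnrnpll −0.019, Hnrnpa1 −0.015, Hnrnpr −0.0095 and Srsf9 −0.0026. In wild-type, library totals only turned Hnrnpll −0.039, and the scaling to mitochondrial mRNAs turned 29 members, to Hnrnpll −2.08, Hnrnpr −2.01, Hnrnph1 −1.90, Hnrnpm −1.89, Srsf6 −1.87, Srsf1 −1.84, Hnrnpl −1.84, Hnrnpa3 −1.78, Srsf5 −1.75, Hnrnpa0 −1.64, Srsf9 −1.64, Hnrnpdl −1.63, Srsf2 −1.60, Hnrnph2 −1.59, Hnrnpu −1.59, Hnrnpul1 −1.58, Srsf4 −1.58, Srsf10 −1.56, Hnrnpa2b1 −1.55, Hnrnpul2 −1.48, Hnrnpc −1.43, Hnrnpf −1.35, Hnrnph3 −1.34, Srsf3 −1.30, Tra2a −1.28, Srsf7 −1.27, Srsf11 −0.99, Hnrnpd −0.98 and Hnrnpa1 −0.73. With each library left out in turn, the members that turned after auxin ranged as follows on the log2 scale: Hnrnpa1 −0.052 to 0.054, Hnrnpa2b1 −0.094 to 0.0079, Hnrnpab −0.046 to 0.16, Hnrnpf −0.16 to 0.021, Hnrnph3 −0.024 to 0.17, Hnrnpll −0.029 to 0.021, Hnrnpr −0.061 to 0.074, Hnrnpul1 −0.089 to 0.030, Srsf1 −0.039 to 0.00068 and Srsf2 −0.0017 to 0.047. With each library left out in turn, the members that turned in wild-type ranged as follows on the log2 scale: Hnrnpab −0.15 to 0.052 and Hnrnpll −0.0063 to 0.041.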
